A study of Mus musculus with 16 samples.

Results

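The comparison described here sets T cell receptor α chain (TCRα) libraries of CD8 lymph node (LN) cells that had been sorted with an antibody to Vα3.2 against TCRα libraries of CD8 LN cells taken without regard to the V segment. Members were chosen by the sample labels: 4 sorted Vα3.2+ and 4 unsorted libraries, which are 8 of the 16 samples in the series. All cells came from C57BL/6 mice with a Foxp3-GFP allele. Each kind of library was made from 2 samples of Themis+/+ Foxp3-GFP mice and 2 of Themis-/- Foxp3-GFP mice, which lack Themis, a protein of TCR signalling in developing thymocytes. No source used here gives the ages of the animals. The series text speaks of separate mice for the samples of a group, whereas the methods describe lymph nodes pooled from several mice of a genotype, so p-values measure the spread between these libraries only. The genotypes rest on the labels, since TCRα tables do not measure Themis. In 1 label field the sorted cells carry another Vα name, and Vα3.2, which the other fields and the paper use, is kept.

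A TCRα chain is made in the thymus by joining 1 of many V segments to 1 of many J segments, with bases lost and added at the joint. The joint codes for the third complementarity-determining region (CDR3), the loop that lies over the peptide held by an MHC molecule. The J segments lie in a row before the constant region gene. TCRα rearrangement can be repeated on an allele, moving outward from the first joint, which for J segments is toward the constant region gene. The antibody RR3-16 is described as recognising the V segment TRAV9N-3, which is named Vα3.2 in the older nomenclature and is associated with MHC class I restricted cells. TRAV9N-3 lies at chr14:53231433-53232102 of GRCm38 and TRAV9D-3 at chr14:52920443-52921112, both on the plus strand. Their annotated transcripts have the same length of 575 bases and the same germline 3′ end.

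The germline 3′ ends of the V segments are shown because they set much of the sequence described below. They start at the codon of the conserved cysteine and are taken from the GENCODE M21 transcripts on GRCm38, and the capital is base 13 of the CDR3, where codon 5 begins.
TRAV9N-3 and TRAV9D-3 germline end: tgtgctgtgagcA
TRAV9-4 germline end: tgtgctgtgagcG
TRAV9N-4 and TRAV9D-4 germline end: tgtgctctgagcA

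The 5 TRAV9 CDR3 nucleotide sequences below are shown as examples of chains seen in both sorted and unsorted cells. They are the 1 found in 8 libraries, the 3 found in 7 and, of the 3 found in 6, the one with the highest mean share of the sorted reads. Capitals mark codon 5.
TRAV9N-3 with TRAJ12, 42 bp: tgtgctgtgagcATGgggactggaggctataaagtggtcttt
TRAV9N-3 or TRAV9D-3 with TRAJ26, 42 bp: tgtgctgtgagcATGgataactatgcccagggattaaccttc
TRAV9N-3 with TRAJ33, 39 bp: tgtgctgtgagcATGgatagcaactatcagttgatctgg
TRAV9N-3 with TRAJ9, 39 bp: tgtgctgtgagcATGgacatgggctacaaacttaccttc
TRAV9N-3 or TRAV9D-3 with TRAJ9, 36 bp: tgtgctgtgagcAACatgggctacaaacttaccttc

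The sorted libraries held 21570 to 25247 reads in 590 to 1610 distinct CDR3 nucleotide sequences, and the unsorted libraries 57455 to 125483 reads in 4357 to 12607 sequences. Single-read sequences were 3.73% to 7.76% of a sorted library and 14.8% to 20.4% of an unsorted one. The tables of sorted and unsorted cells came from different exports, in which the lowest quality of a CDR3 base was 29 or 30 in the sorted and 21 in the unsorted tables, so the export and the sort cannot be told apart. The sorted libraries numbered 2 of both genotypes stood apart from those numbered 1, with fewer sequences and with other V and J segments, as given beside the results they touch. No molecular identifiers are described, so reads are not independent molecules and every limit or interval from counts covers counting error only. A share of reads also cannot tell more cells from more TCRα mRNA per cell.

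The sort changed the V segments from a mixture to the TRAV9 family. TRAV9 segments made up 99.7% to 99.9% of the reads in each sorted library and 2.19% to 4.74% in each unsorted library. TRAV9N-3 itself took 78% and 58.3% of the reads of the Themis+/+ sorted libraries 1 and 2, and 75.7% and 48.9% of the Themis-/- sorted libraries 1 and 2. In the unsorted libraries it took 0.509% and 0.776% in Themis+/+ and 2.79% and 1.96% in Themis-/-. The lowest sorted value was therefore many times the highest unsorted value, and the mean over the 4 libraries of a kind was 65.2% ± 14 (SD, n = 4) against 1.51% ± 1.06 (SD, n = 4). By the edgeR test of reads per V segment, with genotype as a term, the log2 fold change was 5.72 ± 0.62 (SE, adjusted p = 6.64e-05).

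TRAV9N-3 did not fill the sorted libraries, and 4 other TRAV9 segments were higher as well. TRAV9D-3 had 5.76% to 11.3% of the sorted and 0.114% to 0.540% of the unsorted reads (log2 fold change 4.63 ± 0.58, adjusted p = 0.000106). TRAV9N-4 had 7.57% to 10.2% against 0.0835% to 0.421% (5.04 ± 0.62, adjusted p = 9.50e-05). TRAV9D-4 had 0.993% to 3.71% against at most 0.0733%, with 0 reads in 2 of the 4 unsorted libraries (6.01 ± 1.47, adjusted p = 0.00391). With TRAV9-4, the segments that were higher are all those of the family with a read whose names end in 3 or 4. TRAV9-4 was the segment that varied most between sorted libraries, with 1.13% and 19.9% of reads in the Themis+/+ libraries 1 and 2 and 1.56% and 33.7% in the Themis-/- libraries 1 and 2, against 0.186% to 0.507% unsorted (5.16 ± 1.19, adjusted p = 0.00301). Without the sorted libraries numbered 2, an alternative chosen after seeing the data, its log2 fold change by reads was 1.81, still past the threshold. With each sequence counted once, however, TRAV9-4 was not higher in the sorted libraries numbered 1. There it made up 0.607% (Themis+/+) and 0.559% (Themis-/-) of the sequences, 8 and 9 in number, within the 0.295% to 0.734% of the unsorted libraries. In the sorted libraries numbered 2 the TRAV9-4 reads lay in 45 and 87 sequences, of which the most abundant used TRAJ31 and took 2.90% and 3.66% of the library.

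The split between TRAV9N-3 and TRAV9D-3 is uncertain. Both were equal best hits for 36.3% to 42.4% of the sequences of a sorted library, and these were counted as TRAV9N-3. A further 8.76% to 12.4% were called TRAV9D-3 without such a tie. With the segment that was listed first counted instead, TRAV9N-3 took 28.4% to 43.3% of the sorted reads, and with both segments together 54.6% to 89.3%. In the unsorted libraries the segment listed first gave 0.267% to 1.76%. The enrichment of the pair did not rest on the rule for ties, but the share of TRAV9N-3 alone did.

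No TRAV9 segment whose name ends in 1 or 2 passed the test as higher in the sorted cells. TRAV9-1 had 0 reads in both Themis+/+ sorted libraries and 0.00396% and 0.00907% in the Themis-/- ones, against 0.0435% to 0.280% unsorted (log2 fold change -4.78 ± 1.26, adjusted p = 0.00585). TRAV9D-2 was also lower (-3.51 ± 1.20, adjusted p = 0.0207). TRAV9D-1 had 0 reads in the 4 sorted libraries, which with 3 counts over all of them as the floor is at least 34.5-fold lower than its unsorted mean, and 0 reads in 1 unsorted library too. That limit rests on Themis-/- unsorted library 1 (0.361%), without which it is 8.81-fold and the call is lost (adjusted p = 0.108), as it is without Themis-/- unsorted library 2 (adjusted p = 0.0596). With TMM scaling none of these 3 passed the threshold. TRAV9-2 (0% to 0.876% sorted, 0.132% to 0.430% unsorted) and TRAV9N-2 (at most 0.0436% in any library) overlapped between the kinds of library and did not pass. TRAV9-2 lay above every unsorted library in the sorted libraries numbered 2 (0.876% in Themis+/+, 0.522% in Themis-/-). It lay below every unsorted library in those numbered 1 (0% and 0.0753%).

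Segments outside TRAV9 were nearly absent after the sort. Of 113 V segments tested, 109 (96.5%) passed an adjusted p of 0.05, 5 (4.42%) higher in the sorted cells, all of them TRAV9, and 104 (92%) lower. The lower ones comprised 101 of the 103 other segments tested and 3 TRAV9 segments. Since the antibody selects on the V segment, these counts are a check of the sort. With the size factors of DESeq2, which rest on the 5 segments with reads in all 8 libraries, 4 of them TRAV9, 0 segments were called higher and TRAV9D-3 turned to a log2 fold change of -0.20, so the direction within TRAV9 is relative to the library total. The 5 commonest segments of the unsorted cells outside TRAV9 were TRAV12N-3, TRAV12-2, TRAV6D-6, TRAV3N-3 and TRAV16N. The leading one, TRAV12N-3, took 4.57% to 6.33% of unsorted reads and had 0 reads in the sorted cells, at least 1592-fold lower by the same floor. TRAV12-2, TRAV6D-6 and TRAV3N-3 also had 0 sorted reads, which is at least 1476-fold, 1267-fold and 1180-fold lower, and TRAV16N had 11 reads, all in Themis-/- sorted library 2. Among 107 segments outside TRAV9 with a read in any library, 75 had none in the sorted cells, and no such segment reached more than 0.147% of a sorted library.

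The α chains of invariant NKT and MAIT cells, and V segments of the δ locus, were absent or rare in the sorted libraries. Since the sort selects TRAV9, their absence follows from the V segment and does not show which cell types were present. The TRAV11 chain with TRAJ18 of invariant NKT cells and the TRAV1 chain with TRAJ33 of MAIT cells had 0 reads in each sorted library, which allows a share of up to 0.0119% to 0.0139% by 3 counts. Unsorted, they had 0 to 24 and 2 to 50 reads per library. V segments of the δ locus (TRDV) had 1 read in all sorted libraries together and 0.193% to 1.33% of the reads in the unsorted ones.

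**Figure D1:**
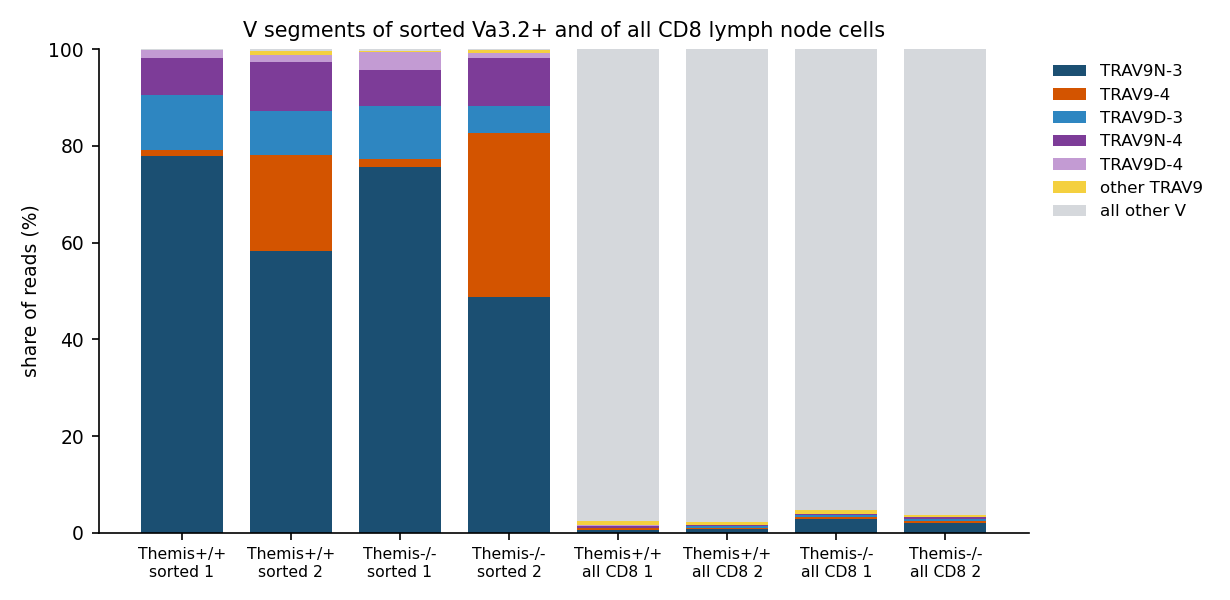
Share of reads (%, vertical axis) by V segment in each of the 8 libraries, 1 bar per library, with the TRAV9 segments in colour and all other V segments in grey. TRAV9N-3 leads each sorted library at 48.9% to 78%, TRAV9-4 is wide in the sorted libraries numbered 2 alone, and grey fills the unsorted bars.

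J use was compared next, since the antibody does not bind the J segment. The sorted cells used the J segments nearest the constant region gene more often and those far from that gene less often. Of 43 J segments tested, 23 (53.5%) passed the edgeR test, 8 (18.6%) higher and 15 (34.9%) lower in the sorted cells. By number, TRAJ1 to TRAJ20, the segments nearest the constant region gene, had 7 of 13 higher and 0 lower. TRAJ21 to TRAJ40 had 1 of 17 higher and 7 lower, and TRAJ41 to TRAJ61 had 0 of 13 higher and 8 lower. The median log2 fold change was 0.91, -0.75 and -1.58 in these 3 groups and -0.40 over all 43 segments. With DESeq2 and its size factors, which move the median by 0.36, the split was 12 higher and 9 lower, and with TMM, which moves it by 0.15, 8 and 11. The count rested in part on single unsorted libraries, with 13 segments passing without Themis+/+ unsorted library 1, 12 without Themis+/+ unsorted library 2 and 14 without Themis-/- unsorted library 1.

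TRAJ2, which lies 2.69 kb before the constant region gene, was among those higher. It took 0.934% and 1.52% of the reads of the Themis+/+ sorted libraries and 1.31% and 4.18% of the Themis-/- ones, against 0.198% and 0.338% and then 0.433% and 0.709% unsorted. The sorted values all lay above the unsorted ones (log2 fold change 2.23 ± 0.49, SE, adjusted p = 0.00726), although the fold rested in part on Themis-/- sorted library 2, without which it was 1.81, and was 1.51 without both sorted libraries numbered 2, the alternative chosen after seeing the data. TRAJ12 was used more than TRAJ2, with 9.0%, 7.45%, 7.77% and 5.79% sorted in the order above and 2.11%, 3.53%, 3.62% and 3.03% unsorted (1.29 ± 0.29, adjusted p = 0.00726). Here too the groups did not overlap, although with each distinct sequence counted once TRAJ12 was 0.36 higher and did not pass (adjusted p = 0.122), while its adjusted p ran from 6.32e-07 to 0.951 over the 19 alternatives. TRAJ6 (4.0% ± 1.23 sorted, 1.18% ± 0.454 unsorted), TRAJ5 (1.90% ± 0.595, 0.537% ± 0.247) and TRAJ4 (3.80% ± 1.19, 1.25% ± 0.574; SD, n = 4 each) rose likewise, by log2 fold changes of 1.75, 1.89 and 1.64 with an adjusted p of 0.00726 each.

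Of the segments that fell, TRAJ47 changed most. It had 0.0337% and 0.385% of the reads in the Themis+/+ sorted libraries and 0.400% and 0.644% in the Themis-/- ones, against 2.19%, 1.41%, 1.86% and 2.23% unsorted (log2 fold change -2.53 ± 0.63, adjusted p = 0.00726). TRAJ30, more used in the unsorted cells than the others that fell and are named here, went from 5.23% to 5.56% unsorted down to 0.913% to 2.88% sorted (-1.43 ± 0.35, adjusted p = 0.00726). TRAJ48, TRAJ38, TRAJ45, TRAJ56, TRAJ42 and TRAJ37 were lower as well, with log2 fold changes from -2.49 to -1.24, and in each the 4 sorted libraries lay below the 4 unsorted ones. Over all 43 segments tested, 5 (11.6%) had every sorted value above every unsorted one and 12 (27.9%) every sorted value below.

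TRAJ31, TRAJ7 and TRAJ9 passed the test with overlapping groups. TRAJ31, the 1 segment outside TRAJ1 to TRAJ20 that was higher, had 4.60% and 3.66% in the sorted libraries numbered 1, within the 3.47% to 5.07% of the unsorted cells, and 10.4% and 21.3% in those numbered 2 (log2 fold change 1.22 ± 0.46, adjusted p = 0.0399). TRAV9-4 joined to TRAJ31 made up 5.05% of the reads of Themis+/+ and 18.1% of those of Themis-/- sorted library 2. Within TRAV9N-3, TRAJ31 took 3.03% ± 0.749 (SD, n = 4) of the sorted reads.

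**Figure D2:**
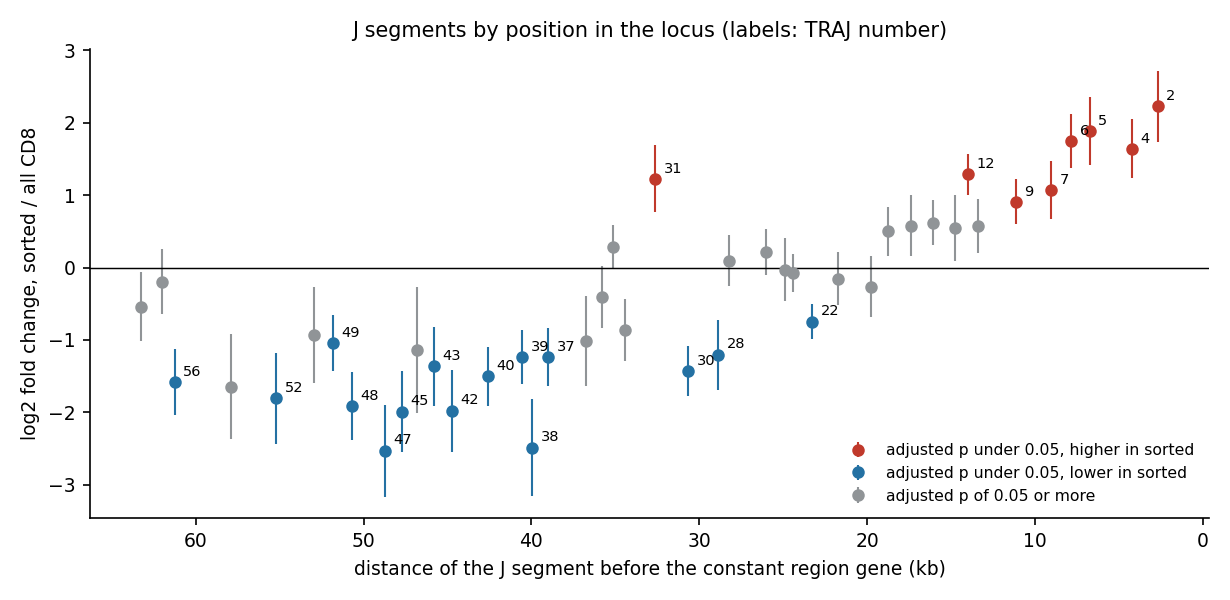
Log2 fold change of each of 43 J segments, sorted over unsorted (vertical axis, bars are SE from edgeR), against the distance of the segment before the constant region gene in kb, with TRAJ numbers beside the segments that passed the test. Segments within 14 kb that passed were all higher in the sorted cells, and the log2 fold change falls with distance (Spearman -0.81 over 43 segments of the same 8 libraries, given as a description).

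Summed over TRAJ1 to TRAJ20, every sorted library used the near J segments more than every unsorted one. The share of reads was 55.1%, 37.0%, 51.3% and 39% in the sorted libraries (Themis+/+ 1 and 2, then Themis-/- 1 and 2) and 14.9%, 24.5%, 27.7% and 28.5% in the unsorted ones. The sorted libraries numbered 2, in which TRAV9-4 was frequent, were the lower of the sorted. With each sequence counted once the shares were 44.4% to 51.4% sorted and 16.4% to 32.1% unsorted.

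The same V segment could be read in the unsorted libraries, where no antibody had selected it. There, 52.2%, 62.5%, 54.9% and 35.7% of the TRAV9N-3 sequences used TRAJ1 to TRAJ20, against 16.1%, 24.6%, 31.3% and 29.2% of the sequences with V segments outside TRAV9. TRAV9N-3 was higher in each of the 4 libraries. In the sorted cells 50.9% ± 1.83 (SD, n = 4) of the TRAV9N-3 sequences used these segments, against 51.3% ± 11.3 in the unsorted ones. Other TRAV9 segments of the unsorted cells had 24.5% ± 8.16, near the 25.3% ± 6.74 of V segments outside TRAV9. In the sorted cells, however, the other TRAV9 segments used them in 52.2% and 30.5% of the Themis+/+ and 54.1% and 30.9% of the Themis-/- sequences, higher in the libraries numbered 1.

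Tested segment by segment within the unsorted libraries, with the library as a term and each sequence counted once, 1 of 43 J segments (2.33%) passed in TRAV9N-3 against all other V segments. This was TRAJ12, higher in TRAV9N-3 by 1.32 ± 0.25 on the log2 scale (adjusted p = 2.77e-05), and 9 passed an unadjusted p of 0.05. The call was lost without Themis-/- unsorted library 1, and 12 passed with DESeq2. TRAV9N-3 had 56 to 173 sequences per unsorted library, and the number of segments that passed depended on the test, with 7 by reads, all lower. Between TRAV9N-3 of sorted and of unsorted cells, 3 of 43 J segments passed, TRAJ32, TRAJ39 and TRAJ5, all higher in sorted cells. In that comparison TRAJ6, TRAJ12, TRAJ30, TRAJ48, TRAJ56, TRAJ42 and TRAJ37 had the opposite sign to that given above, none of them past the threshold.

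No difference between the genotypes in the effect of the sort on J use was detected, with 0 of 43 segments past the threshold for the interaction in edgeR, 0 at an unadjusted p under 0.05, and 0 with 5 at an unadjusted p under 0.05 when sequences were counted once. DESeq2 was not run for the interaction. Tested alone, the Themis+/+ libraries gave 6 segments and the Themis-/- libraries 0, with 14 and 17 at an unadjusted p under 0.05.

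**Figure D3:**
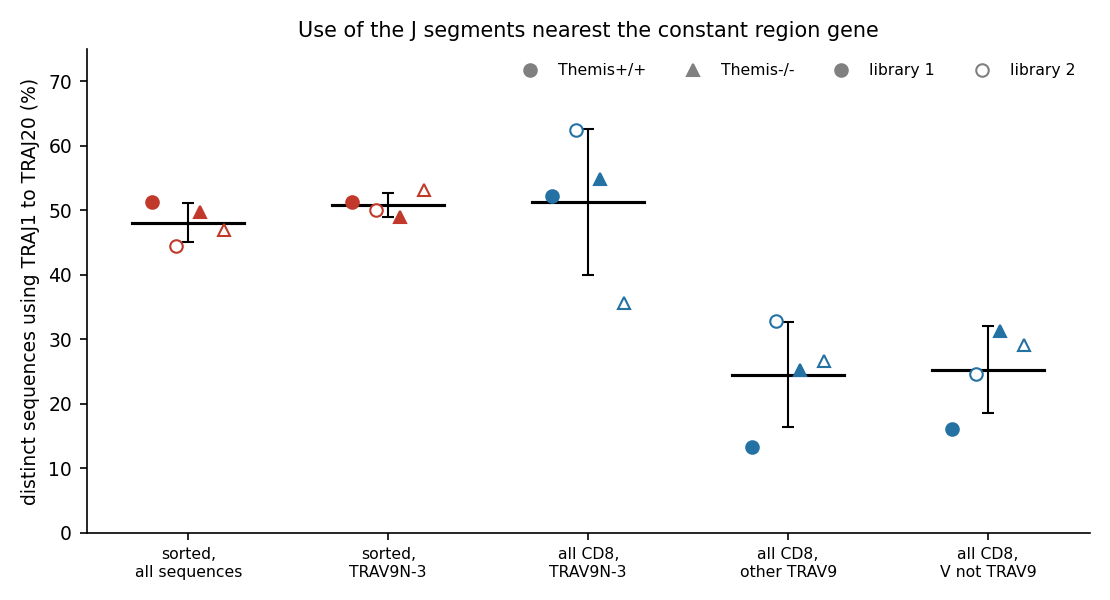
Share of distinct CDR3 sequences that use TRAJ1 to TRAJ20 (%, vertical axis) in sorted cells and in V segment groups of the unsorted cells, 1 point per library, with the mean and SD of 4 libraries as bars. TRAV9N-3 lies near 50.9% in sorted cells and at 35.7% to 62.5% in unsorted cells, above the other V segments of each unsorted library.

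The CDR3s of the sorted cells differed from those of all CD8 cells in the residue at position 5, in hydropathicity and in net charge. They did not differ detectably in length. Hydropathicity and charge were taken over the whole CDR3. Each distinct nucleotide sequence was counted once and libraries were compared by an exact permutation test, two-sided, whose smallest p with 4 against 4 libraries is 0.0286, with adjustment over 8 properties. Methionine at position 5, counted from the conserved cysteine, was found in 21.2%, 19.7%, 19.6% and 20% of the sequences of the sorted libraries and in 3.40%, 3.77%, 3.99% and 4.54% of the unsorted ones. The groups were far apart relative to their spread (20.1% ± 0.724 against 3.93% ± 0.477, SD, n = 4 each, p = 0.0286, exact permutation test, adjusted p = 0.0457).

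Other residues at this position moved as well, with the same smallest p of 0.0286 and adjusted p of 0.0457 in the exact permutation test. Isoleucine or leucine stood there in 13.8% ± 2.18 of sorted and 4.61% ± 0.391 of unsorted sequences. The acidic residues aspartate and glutamate stood there in 4.77% ± 0.218 of sorted and 28.7% ± 0.807 of unsorted sequences. The Kyte-Doolittle hydropathicity per residue, which is higher for more hydrophobic loops, was 0.457 ± 0.0123 in the sorted and 0.175 ± 0.0284 in the unsorted cells. The net charge, counted as lysine and arginine minus aspartate and glutamate, was 0.807 ± 0.0314 and 0.392 ± 0.0455. In all 5 of these properties the sorted and unsorted libraries did not overlap, and within each genotype the direction was the same.

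The mean length of the CDR3 was 40.5 ± 0.249 bp in sorted and 40.6 ± 0.140 bp in unsorted cells (difference -0.145 bp, p = 0.343, exact permutation test). Between the V and J parts lay 2.0 ± 0.112 and 1.95 ± 0.142 bases (p = 0.657, exact permutation test), and 35.6% ± 0.916 and 34.8% ± 1.90 of the sequences had 0 such bases (p = 0.457, exact permutation test). These 3 properties overlapped between the kinds of library. The tables hold CDR3s of 30 to 48 bp alone, which limits what a comparison of length can show.

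TRAV9N-3 showed the same residues without the sort. Within the unsorted libraries methionine at position 5 was found in 21.2%, 25%, 23.7% and 24% of the TRAV9N-3 sequences and in 3.24%, 3.56%, 3.18% and 4.07% of the sequences of all other V segments. Isoleucine or leucine stood in 17.5% ± 5.34 against 4.39% ± 0.423, and aspartate or glutamate in 5.18% ± 6.26 against 29.2% ± 0.889. Hydropathicity was 0.410 ± 0.0641 against 0.169 ± 0.0249 and charge 0.731 ± 0.0555 against 0.386 ± 0.0425. Each of these 5 differences had 1 direction in 4 of 4 libraries, with p = 0.125 in the exact sign-flip permutation test, the smallest that 4 libraries allow.

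TRAV9N-3 sequences of sorted cells and those of unsorted cells were then set against each other. Methionine at position 5 was at 24.5% ± 1.45 and 23.5% ± 1.60, a difference of 0.958 points (p = 0.4, exact permutation test). None of the 8 properties passed after adjustment, the lowest adjusted p being 0.229, while 1 had an unadjusted p of 0.0286 in the exact permutation test. That was the share of sequences with 0 bases between V and J, at 32.4% ± 1.53 in sorted and 40.2% ± 6.49 in unsorted cells. A p above the threshold does not show that the loops were alike, and the unsorted values rest on 56 to 173 sequences per library.

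**Figure D4:**
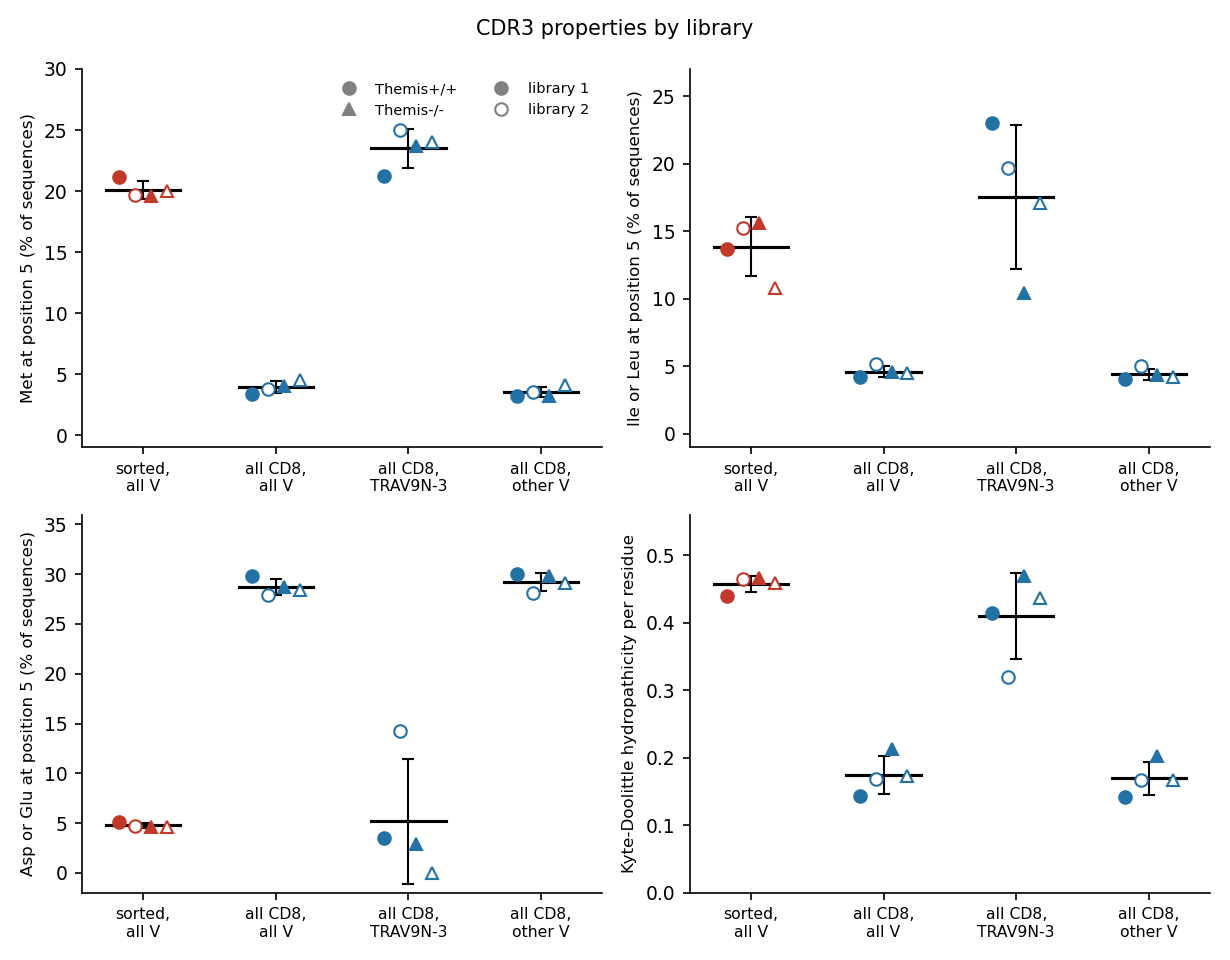
Methionine, isoleucine or leucine, and aspartate or glutamate at CDR3 position 5 (% of distinct sequences) and hydropathicity per residue, 1 point per library with the mean and SD of 4 libraries, for sorted cells, all CD8 cells, and TRAV9N-3 and all other V segments within all CD8 cells. In each panel the mean of TRAV9N-3 in unsorted cells lies nearer to the sorted cells than to the other V segments.

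The codon at position 5 begins with the last germline base of the V segment, marked in capitals in the germline ends shown above. In TRAV9N-3 that base is A, which together with the bases tg makes the methionine codon. The bases tg are also the reverse complement of the last 2 germline bases, ca, the form that palindromic (P) bases take when the hairpin of a coding end is opened off centre. A V part that reads atg there is reported to base 15, which is 2 bases past the annotated germline end, so the reported V end follows from these letters and does not show where the bases came from. Over all TRAV9N-3 sequences the V part was reported to base 15 in 28.7% ± 1.82 of the sorted and 30.1% ± 3.75 of the unsorted ones (SD, n = 4 each).

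TRAV9-4 ends in G at this base, which cannot begin a methionine codon. Methionine stood at position 5 in 3.62% ± 5.08 of its sorted sequences (149 in 4 libraries) and 5.87% ± 8.32 of its unsorted ones (171). In TRAV9N-4 and TRAV9D-4, which end in A, it stood in 14.1% ± 3.64 of the sorted (193) and 24.6% ± 12.7 of the unsorted sequences (100). Of the 5 sequences printed above, 4 carry ATG as codon 5 with a V part to base 15, and the 36-bp TRAJ9 sequence carries AAC with a V part to base 13.

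At equal reads the sorted cells held fewer distinct sequences. TRAV9 made up 2.29% to 6.52% of the sequences of an unsorted library, so this comparison cannot separate diversity from the restriction to TRAV9 by the sort. At 21570 reads, the total of the smallest library, 1309, 590, 1589 and 730 nucleotide sequences were expected in the sorted and 7468, 4467, 3403 and 4038 in the unsorted libraries. The mean log2 ratio was -2.25 (p = 0.0286, exact permutation test). The 10 most abundant sequences took 11% ± 3.87 of the sorted and 3.84% ± 1.11 of the unsorted reads, with p = 0.0286 in the same exact permutation test. At equal reads each amino acid sequence was coded by 1.10 ± 0.0366 nucleotide sequences in the sorted and 1.21 ± 0.0247 in the unsorted libraries, and over all reads by 1.10 ± 0.0368 and 1.23 ± 0.0184 (p = 0.0286 for both, exact permutation test). No source used here gives the number of cells behind each library, so fewer cells and a narrower repertoire cannot be told apart, and sorted library 1 of each genotype held more than 2 times as many sequences as library 2.

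The last comparison asked how many TRAV9 clonotypes of the unsorted cells, each a distinct CDR3 nucleotide sequence, recurred in the sorted cells. The 4 unsorted libraries held 383, 132, 284 and 272 TRAV9 clonotypes, in the order used above. Of these, 36, 28, 41 and 36 were found in at least 1 of the 4 sorted libraries, which is 9.40%, 21.2%, 14.4% and 13.2%, or 14.6% ± 4.92 (SD, n = 4). In all, 122 of 1041 distinct unsorted TRAV9 clonotypes recurred (11.7%), which are 3.44% of the 3544 distinct sorted ones. By amino acid sequence 22.6% ± 5.75 recurred. Of the clonotypes with V segments outside TRAV9, 70 of 27062 (0.259%) had a nucleotide sequence found in a sorted library. A CDR3 begins with bases of its V segment, and the sorted sequences were nearly all TRAV9. That share is therefore held low by the V end and does not measure matches by chance.

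Recurrence differed between the V segments of the unsorted clonotypes, and so did the number of sorted sequences of each segment. A match was to any TRAV9 sequence of a sorted library, also one called as another TRAV9 segment. Summed over the 4 sorted libraries there were 3336 sequences of TRAV9N-3, 489 of TRAV9D-3, 193 of TRAV9N-4 or TRAV9D-4 and 149 of TRAV9-4. The shares below are not adjusted for these numbers. TRAV9N-3 clonotypes recurred in 99 of 471 cases (21%, 95% Wilson interval 17.6% to 24.9%) and TRAV9D-3 in 22 of 74 (29.7%, 20.5% to 40.9%). The intervals in this paragraph pool the clonotypes of 4 libraries and do not measure the spread between libraries. By library the shares ran more widely, from 18.5% to 33.9% for TRAV9N-3 and from 7.14% to 41.7% for TRAV9D-3. Matched to sorted TRAV9N-3 sequences alone, 17.3% to 32.1% of the TRAV9N-3 clonotypes of a library recurred. TRAV9-4 recurred in 12 of 171 (7.02%, 4.06% to 11.9%), of which 10 came from Themis+/+ unsorted library 1. TRAV9N-4 and TRAV9D-4, both of which had a higher share of reads after the sort, recurred in 1 of 100 (1.0%, 0.177% to 5.45%). Segments whose names end in 1 or 2 recurred in 7 of 255 (2.75%, 1.34% to 5.56%). By abundance, 7.92% ± 2.78 of the TRAV9 clonotypes with 1 read recurred, 13.8% ± 6.17 of those with 2 to 9 reads and 20.8% ± 7.92 of those with 10 reads or more (SD, n = 4 libraries).

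No excess of recurrence was detected between libraries of the same genotype and number. Over the 16 pairs of 1 unsorted and 1 sorted library, 11 to 29 clonotypes were shared, 3.13% to 15.9% of the unsorted TRAV9 clonotypes. Pairs of the same genotype shared 8.0% on average and pairs of different genotypes 7.31%, a difference that was not tested. Pairs with the same genotype and number exceeded the others by 0.212 points, with p = 0.5, one-sided, in an exact permutation test over 24 pairings, whose smallest p is 0.0417. The unsorted library with 383 clonotypes had the lowest share in any sorted library and the one with 132 the highest.

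**Figure D5:**
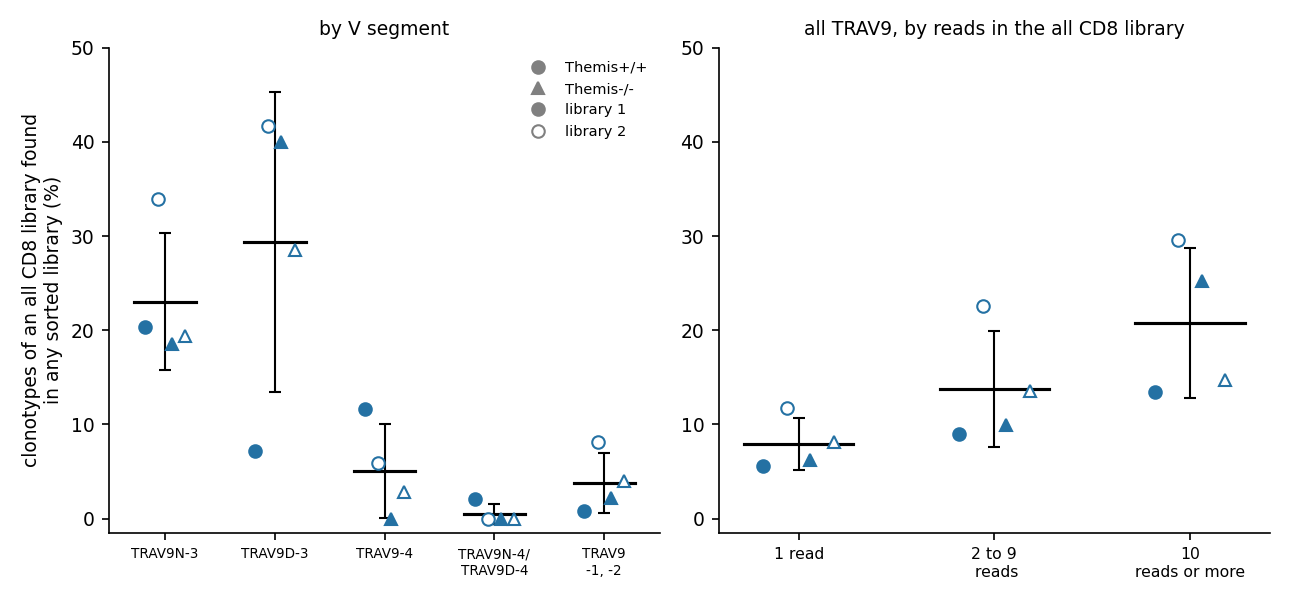
Share of the TRAV9 clonotypes of each unsorted library that were found in any sorted library (%, vertical axis), by V segment (left) and by reads in the unsorted library (right), 1 point per unsorted library with the mean and SD of 4 as bars. TRAV9N-3 and TRAV9D-3 lie above the other segments in most libraries, and the mean goes from 7.92% at 1 read to 20.8% at 10 reads or more.

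Most sorted clonotypes were not seen unsorted, and the share that was differed with the number of sorted libraries that held them. Of sorted TRAV9 clonotypes present in 1, 2, 3 and 4 sorted libraries, 1.88%, 10.8%, 15.2% and 36.1% were found in an unsorted library, the last being 13 of 36. In the other direction 4.92% to 7.44% of the TRAV9 clonotypes of a sorted library were found unsorted, and 23.3% to 33.7% in another sorted library. Unsorted TRAV9 clonotypes that recurred were found in another unsorted library in 23.3% ± 8.19 of cases and those that did not in 2.65% ± 0.954.

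Recurring TRAV9N-3 clonotypes had fewer bases between the reported V and J parts than the others of the same unsorted library. Between V and J lay 1.10 ± 0.190 bases in those that recurred and 1.90 ± 0.176 in those that did not (SD, n = 4 libraries), lower in 4 of 4 libraries. Methionine at position 5 was found in 39.4% ± 11.4 and 18.9% ± 2.01, higher in 4 of 4. Both gave p = 0.125 in the exact sign-flip permutation test, the smallest 4 libraries allow. Use of TRAJ1 to TRAJ20 was 56.3% ± 7.0 and 50% ± 12.6, higher in 3 of 4 libraries (p = 0.375, exact sign-flip permutation test).

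Single chains can be followed with the printed sequences. The TRAJ12 sequence was present in all 8 libraries, at 0.564%, 1.54%, 1.66% and 0.644% of the sorted reads and at 0.00750% to 0.0174% of the unsorted reads. The TRAJ26 sequence was the most abundant TRAV9N-3 chain of Themis+/+ sorted library 2 (2.05%) and Themis-/- sorted library 1 (3.80%), and was found in 3 unsorted libraries at 0.00696% to 0.106%. The 36-bp TRAJ9 sequence was the most abundant TRAV9N-3 chain of Themis+/+ sorted library 1 (0.707%), shared that place with the TRAJ12 sequence in Themis-/- sorted library 2 (142 reads each), and was found in 2 unsorted libraries. The TRAJ33 and 39-bp TRAJ9 sequences were in all 4 sorted and 3 unsorted libraries. In each of the 5, the V and J parts were parted by at most 1 base.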

How the data were processed

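CD8 cells were sorted, TCRα cDNA was amplified by 5′ RACE with a constant region primer and sequenced on a MiSeq by the authors, who called clonotypes with MiXCR (the version was not found in the sources used here). The submitters' processing notes name CASAVA 1.4 and mm9. Each table deposited by the authors lists CDR3 nucleotide sequences with their raw read count and with a fraction, which in these 8 libraries is that count over the total. Sequences with a stop codon or a frameshift, and lengths other than 30 to 48 bp, were already absent.

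From these, V and J segments were compared by reads in edgeR 4.0.16, with library totals and no TMM, genotype as a term, the quasi-likelihood test and a Benjamini-Hochberg adjusted p under 0.05. Segments needed 10 reads or more in 2 or more libraries. DESeq2 1.42.0 was an alternative. Libraries were compared by exact permutation tests. Bases between V and J are those from the reported V end to the reported J start, counted as 0 where the parts overlap. Ties between TRAV9N-3 and TRAV9D-3 went to TRAV9N-3. Positions and germline ends came from GENCODE M21 on GRCm38. Scripts were tested on simulated data. Python 3.11.15, numpy 2.4.6, pandas 2.3.3, scipy 1.17.1, matplotlib 3.10.9 and R 4.3.3 were used.

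The V segments named are all TRAV9 segments with a read and the 5 commonest others in unsorted cells. The J segments named are up to 8 higher and 8 lower with the smallest adjusted p whose libraries did not overlap, and TRAJ31, TRAJ7, TRAJ9, TRAJ32 and TRAJ39 were named after their values were seen. Members and lists were chosen with earlier results of these data known. The count of V ends at base 15 and the value of TRAV9D-1 without single libraries were chosen after the data had been seen, as were the alternatives that left out the sorted libraries numbered 2, required a CDR3 quality of at least 30, ran the interaction by sequences or with TMM, or weighted properties by reads. Thymic libraries were not used here.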

Additional observations from a re-analysis of the deposited data

Results flagged for a closer look

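The number of bases between V and J moved in opposite directions in the 2 genotypes. Sorted minus unsorted was -0.105 bases in Themis+/+ and 0.196 in Themis-/-, a difference of 0.301 bases between the effects. Every Themis+/+ sorted library lay below both Themis+/+ unsorted ones, and every Themis-/- sorted library above both Themis-/- unsorted ones. The difference was not tested. With TRAV9N-3 alone in both kinds of library the directions were not opposite. Themis+/+ had 2.05 and 1.87 bases sorted against 1.55 and 1.625 unsorted, without overlap. Themis-/- had 2.01 and 1.95 sorted against 1.71 and 1.97 unsorted, with overlap.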

How the results depend on the processing

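Counts of V segments stayed between 95 and 109 under the alternatives tried, except 58 with the N and D copies merged, where fewer segments were tested, and lay at 104 to 107 when 1 library was left out. The cause of the other changes given here was not tested. J segments that passed numbered 3 with TRAV9N-3 alone in both kinds of library, 6 in Themis+/+ and 0 in Themis-/- alone, and 12 to 23 with 1 library left out. Within unsorted cells they numbered 7 by reads, 0 for every TRAV9 segment, 12 with DESeq2 and 0 to 1 with 1 library left out. Whether the library numbers pair the samples was not settled (correlation of deviations over 44 J segments -0.31 in Themis+/+ and -0.04 in Themis-/- by reads, -0.24 and 0.31 by sequences). The replicate block gave 19 J and 105 V segments. DESeq2, whose size factors rest on the 5 segments with reads in all 8 libraries, 4 of them TRAV9, called 0 V segments higher and 107 lower and moved the median by -3.25.

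Signs turned for TRAV9-2 (DESeq2 -3.76, copies merged -0.18, replicate block -0.019, -0.40 to 1.29 with 1 library left out, the lowest without Themis+/+ sorted library 2, without both sorted libraries numbered 2 -2.57), TRAV9D-3 (DESeq2 -0.20) and TRAV9N-2 (DESeq2 -4.28, replicate block -0.88, -0.33 to 1.04 with 1 library left out, the lowest without Themis-/- unsorted library 1). With TRAV9N-3 alone in both kinds of library they turned for TRAJ6 (-1.10), TRAJ12 (-0.13), TRAJ30 (0.16), TRAJ48 (1.77), TRAJ56 (1.005), TRAJ42 (2.41) and TRAJ37 (2.85).

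Of the CDR3 properties, sorted minus unsorted, the 5 that passed held their direction except isoleucine or leucine, and lost the threshold with TRAV9N-3 alone in both kinds of library: hydropathicity 0.0707, charge 0.0521, methionine 0.958, isoleucine or leucine -2.62, aspartate or glutamate -0.282 points. There length was 0.365 bp and sequences with 0 bases between V and J -7.83 points, and -2.39 with TRAV9N-3 in sorted cells alone. In the 100 most abundant sequences length was -0.653 bp (past the threshold), isoleucine or leucine 6.5 points (not past it) and bases between V and J -0.108. Themis+/+ and Themis-/- alone gave methionine 16.8 and 15.5, bases between V and J -0.105 and 0.196, and sequences with 0 of them 2.41 and -0.878. Weighted by reads within unsorted cells, TRAV9N-3 minus other V segments was 14.9 for methionine, 21.3 for isoleucine or leucine and -6.65 for 0 bases. Without the sorted libraries numbered 2, nucleotide per amino acid sequence differed by -0.099. Recurrence was 22.6% by amino acid sequence and 21.7% with TRAV9N-3 alone in both kinds of library.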
